A study of Homo sapiens with 24 samples.

Results

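Wnt ligands, the secreted proteins that bind them or their coreceptors, and the receptors and target that report on the pathway were followed as 10 genes in IMR90 cells, a human diploid lung fibroblast line. The genes were WNT2, WNT5A, WNT5B, WNT16, DKK1, DKK3, SFRP1, FZD7, FZD8 and AXIN2. They were taken by name, through their Entrez Gene identifiers, from the 25702 identifiers in the count files, and 10 of 10 were among the 13356 genes that passed the filter on low counts. Wnt proteins are secreted glycoproteins that bind Frizzled receptors. In the canonical branch, ligand binding with an LRP coreceptor stabilises β-catenin, which enters the nucleus and acts with TCF/LEF factors on target genes. Other Wnts, WNT5A among them, mostly act through β-catenin-independent branches that govern cell polarity and movement. DKK and SFRP proteins are released into the same extracellular space, where DKK1 blocks the LRP coreceptors and SFRP1 binds Wnt ligands. In fibroblasts the pathway has been studied in wound repair, fibrosis and senescence, a stable arrest of the cell cycle.

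Gene expression was measured by RNA-seq in 24 libraries, 6 labelled biological replicates in each of 4 groups. Every cell carried a retroviral ER:HRAS(G12V) fusion, an oncogenic RAS that is held inactive until 4-hydroxytamoxifen (4OHT) is added, and was used at passage 23 to 28. Growing cells had the empty MSCV vector and no 4OHT, and shHMGA1 cells had an MSCV miR30 hairpin against HMGA1 and no 4OHT. RIS cells (RAS-induced senescence) had the empty vector and 6 days of 4OHT, and RIS+shHMGA1 cells had the hairpin and 6 days of 4OHT. HMGA1 encodes a chromatin architectural protein of senescence-associated heterochromatic foci. A single hairpin was used, no growing or shHMGA1 cells received 4OHT, and the RNA came from whole cultures, so fewer cells that make a transcript and less of it per cell cannot be told apart.

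Promoter sequence was read for 6 of the 10 genes, in 8 RefSeq windows of GRCh38.p14 that run from 250 bases before the transcript start to 50 bases after it. No window was read for DKK3, SFRP1, FZD7 and AXIN2. The windows were searched on both strands for 3 motifs. CTTTGA is the core bound by TCF/LEF factors. The letters TGANTCA are bound by AP-1, and the letters TATAAA were read as a TATA box. No pair of these motifs overlapped in the windows of the 6 genes. The 250 bases before the start are shown for DKK1 and WNT2, whose transcripts fell with 4OHT in hairpin cells, and for FZD8, whose transcript was not called there. They lie at chr10:52314031-52314280 on the plus strand (DKK1), chr7:117323059-117323308 on the minus strand (WNT2) and chr10:35642297-35642546 on the minus strand (FZD8), and capitals mark the motifs that were searched for.
DKK1: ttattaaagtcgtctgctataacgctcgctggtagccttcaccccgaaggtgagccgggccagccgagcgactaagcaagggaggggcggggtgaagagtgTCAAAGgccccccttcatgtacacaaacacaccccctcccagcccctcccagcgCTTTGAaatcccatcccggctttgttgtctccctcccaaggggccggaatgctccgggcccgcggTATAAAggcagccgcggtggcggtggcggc
WNT2: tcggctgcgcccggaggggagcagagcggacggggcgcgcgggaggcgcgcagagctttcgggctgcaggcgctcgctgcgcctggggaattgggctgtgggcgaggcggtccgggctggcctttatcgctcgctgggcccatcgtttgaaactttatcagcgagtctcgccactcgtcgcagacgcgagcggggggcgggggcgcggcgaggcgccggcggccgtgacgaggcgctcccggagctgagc
FZD8: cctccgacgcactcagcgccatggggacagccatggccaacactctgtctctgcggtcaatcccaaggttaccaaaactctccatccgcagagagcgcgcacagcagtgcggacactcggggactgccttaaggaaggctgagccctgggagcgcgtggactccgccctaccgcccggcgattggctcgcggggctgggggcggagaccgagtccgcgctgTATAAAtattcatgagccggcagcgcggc
The DKK1 window held CTTTGA or its reverse complement at 2 places, 149 and 95 bases before the start, and TATAAA 30 bases before it. The FZD8 window held TATAAA 29 bases before the start and neither of the other motifs. The WNT2 window held none of the 3 motifs. Of 35116 RefSeq promoters of the same length, 12.9% held CTTTGA, 7.71% held TGANTCA and 11.5% held TATAAA. Among the other 5 windows, which belong to WNT5A, WNT5B and WNT16, a TATAAA match occurred in 1 window of WNT5B. It was the reverse complement, TTTATA, 78 bases before the start. These matches describe letters in the windows, and binding was not measured.

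Total counts ranged from 8698070 to 23103424 per library, with a median of 10604084. The fibroblast label held, since 10 of 10 fibroblast markers were detected in all 24 libraries. No epithelial or leukocyte marker exceeded 1.26 CPM (a read count relative to the TMM-scaled total of its library) in a library, and NKX2-1 was at 0 in 24 of 24. Of 5 endothelial markers, TEK reached 123 CPM and the other 4 stayed at or below 1.27 CPM. The libraries labelled growing replicate 4 and RIS replicate 2 stood apart from their groups. The 10 proliferation genes, MKI67 and CCNA2 among them, had a mean log2 CPM of 3.35 in growing replicate 4 against 5.89 to 6.34 in the other growing libraries. They had 6.03 in RIS replicate 2 against 3.09 to 3.53 in the other RIS libraries. The 6 secretome genes, IL1A and CXCL8 among them, had a mean log2 CPM of 11.45 in growing replicate 4 against 6.201 to 7.77, and of 6.65 in RIS replicate 2 against 10.37 to 11.14. Both libraries went against their labels in these genes, so each comparison was also made without them, over 22 libraries.

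HMGA1, the hairpin's target, was measured at 712 ± 82.0 CPM (SD, n = 6) in growing cells and 105 ± 41.0 CPM with the hairpin. With 4OHT it was at 723 ± 50.05 CPM in RIS and 174 ± 85.6 CPM in RIS+shHMGA1. No hairpin library reached the lowest vector library of its arm. The log2 fold change of HMGA1 was −2.76 (SE 0.31) in shHMGA1 against growing, at an adjusted p of 1.9e-05, and −2.05 (SE 0.30) in RIS+shHMGA1 against RIS, at 0.00065. These values come from the quasi-likelihood test of edgeR, adjusted over all genes tested by the method of Benjamini and Hochberg, as do the adjusted p values that follow. A gene was called when its adjusted p was under 0.01 and its absolute log2 fold change over 0.58.

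Levels of different genes were compared as CPM per kilobase of canonical transcript. In growing cells DKK3 led with 357 CPM per kb, followed by WNT5A with 157, WNT5B with 65.0 and WNT16 with 49.9. DKK1 and SFRP1 had 26.4 ± 17.9 and 26.0 ± 9.24 CPM per kb (SD, n = 6), ahead of FZD7 with 19.1 and FZD8 with 10.5, and neighbours from WNT5B to FZD8 did not differ beyond their spread. Without growing replicate 4, FZD7 at 22.5 ± 4.29 and FZD8 at 10.9 ± 3.78 CPM per kb (SD, n = 5) no longer overlapped. AXIN2 and WNT2 stood at the low end, at 0.206 ± 0.0763 and 0.286 ± 0.166 CPM per kb (SD, n = 6), and did not differ beyond their spread. In RIS+shHMGA1 cells WNT2 had 0.00429 ± 0.0105 and WNT5A 91.8 ± 12.6 CPM per kb, next to 104 ± 23.8 for DKK3, so that the top pair did not differ beyond their spread there.

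**Figure D1:**
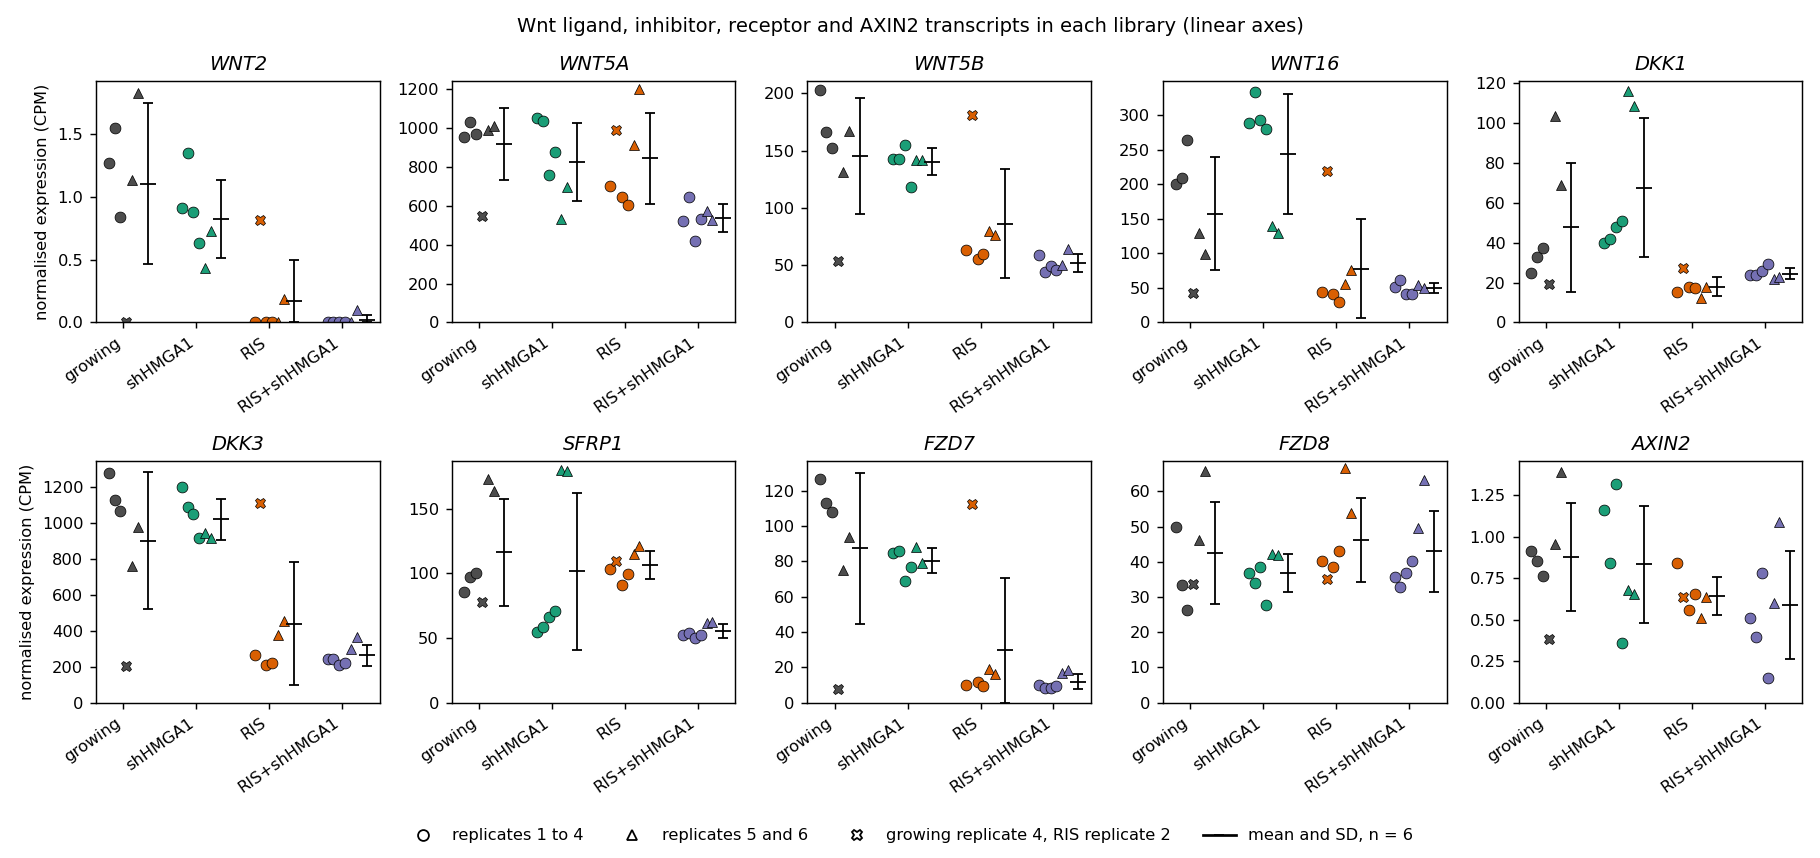
Normalised expression (CPM, linear axes) of the 10 genes in each of the 24 libraries, with mean and SD of 6 libraries per group (bars are cut at 0). Growing replicate 4 and RIS replicate 2 are drawn as crosses and lie with the opposite group for FZD7, at 7.84 and 112 CPM.

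WNT2, a canonical ligand known from lung development, was close to the detection limit (chr7:116915505-116963206 of GRCh37, minus strand). Its levels ran from 0 to 1.83 CPM (median 1.2) in growing, from 0.430 to 1.35 (median 0.802) in shHMGA1, then from 0 to 0.816 (median 0) in RIS cells and from 0 to 0.0992 (median 0) in RIS+shHMGA1. The RIS+shHMGA1 libraries lay below all shHMGA1 libraries, while RIS and growing overlapped through growing replicate 4, at 0 CPM. RIS replicate 2, the highest RIS library at 0.816 CPM, lay just below the other growing libraries, which began at 0.840 CPM. Summed over 6 libraries there were 97 reads in growing, 61 in shHMGA1, then 11 in RIS cells and 1 in RIS+shHMGA1. Corrected for depth, WNT2 was 45.0-fold lower in RIS+shHMGA1 than in shHMGA1 (exact 95% Poisson interval 7.79 to 1808) and 6.98-fold lower in RIS than in growing (3.73 to 14.4). Without the 2 departing libraries RIS held 2 reads, 35.2-fold below growing (9.49 to 295). These intervals cover counting error only. The fitted log2 fold change was −4.86 (SE 1.05, adjusted p 0.00082) in RIS+shHMGA1 against shHMGA1, a value that depends on the prior count because 1 read stands behind one side. In RIS against growing it was −2.68 (SE 0.68, adjusted p 0.019) over 24 libraries and −4.80 (SE 0.58, adjusted p 1.5e-07) over 22, and leaving out growing replicate 4 alone or RIS replicate 2 alone gave −2.88 and −4.60, both called.

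WNT5A, the main ligand of the β-catenin-independent branch, was the most abundant Wnt transcript per kilobase (chr3:55499743-55524567, minus strand). It had 545 to 1033 CPM (median 979) in growing, 532 to 1053 (median 819) in shHMGA1, then 604 to 1202 (median 809) in RIS cells and 418 to 643 (median 530) in RIS+shHMGA1. Growing replicate 4 was the lowest growing library and the other 5 held 954 to 1033 CPM, and every pair of groups overlapped over 24 libraries. WNT5A was 0.62 lower on the log2 scale in RIS+shHMGA1 than in shHMGA1 (SE 0.19, adjusted p 0.0081), a call at the edge of the threshold that was lost when any one of 9 libraries was left out (shHMGA1 replicates 1 to 4 and RIS+shHMGA1 replicates 1, 3, 4, 5 and 6), at −0.64 to −0.54 and adjusted p 0.011 to 0.025. It was lost too with relative log expression scaling, at adjusted p 0.011. The change in RIS against growing was −0.12 (SE 0.19, adjusted p 0.67), and −0.28 (SE 0.18, adjusted p 0.17) without the 2 libraries. Against RIS, RIS+shHMGA1 cells differed by −0.65 (SE 0.19, adjusted p 0.019), not called, and −0.60 (SE 0.17, adjusted p 0.0090) without the 2 libraries, called. Leaving out growing replicate 4 alone gave −0.65 at adjusted p 0.0047 there.

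WNT5B, a close paralogue of WNT5A, had lower levels than WNT5A in every group (chr12:1639057-1756378, plus strand). It had 53.2 to 203 CPM (median 159) in growing, 118 to 155 (median 142) in shHMGA1, then 55.8 to 181 (median 69.9) in RIS cells and 43.96 to 64.0 (median 49.6) in RIS+shHMGA1. Growing replicate 4 was the lowest growing library and RIS replicate 2 the highest RIS library, and without them 131 to 203 CPM in growing stood clear of 55.8 to 79.8 CPM in RIS. The log2 fold change of RIS against growing was −0.76 (SE 0.26, adjusted p 0.051) over 24 libraries and −1.29 (SE 0.13, adjusted p 6.1e-09) over 22. Leaving out either library alone gave −0.93 without growing replicate 4 and −1.12 without RIS replicate 2, both called. WNT5B fell by 1.43 in RIS+shHMGA1 against shHMGA1 (SE 0.27, adjusted p 0.00031), with no overlap between the groups.

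WNT16, a ligand described in senescent fibroblasts, lies on chromosome 7 with WNT2 (chr7:120965421-120981158, plus strand). It had 41.9 to 264 CPM (median 165) in growing, 129 to 333 (median 284) in shHMGA1, then 29.6 to 220 (median 49.96) in RIS cells and 40.9 to 60.9 (median 50.6) in RIS+shHMGA1. All 6 RIS+shHMGA1 libraries lay below all 6 shHMGA1 libraries, and WNT16 fell by 2.29 on the log2 scale (SE 0.44, adjusted p 0.00035). Its change in RIS against growing was −1.02 (SE 0.42, adjusted p 0.096) over 24 libraries and −1.87 (SE 0.28, adjusted p 3.8e-06) over 22. RIS replicate 2 alone decided that call, since leaving it out gave −1.67 at adjusted p 0.00080. The 5 remaining RIS libraries, at 29.6 to 76.3 CPM, did not reach the 5 remaining growing libraries, at 99.3 to 264 CPM.

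DKK1, which blocks the LRP5 and LRP6 coreceptors, is the gene whose window above holds 2 TCF/LEF cores (gene at chr10:54074041-54077802 of GRCh37, plus strand). It had 19.2 to 103 CPM (median 34.9) in growing, 39.8 to 116 (median 49.4) in shHMGA1, then 12.3 to 27.03 (median 17.5) in RIS cells and 21.8 to 29.1 (median 23.7) in RIS+shHMGA1. Each 4OHT group had a lower median than the group with the same vector and no 4OHT, with overlap between RIS and growing over 24 libraries. The log2 fold change was −1.41 (SE 0.35, adjusted p 0.017) in RIS against growing, and −1.72 (SE 0.33, adjusted p 0.00010) without the 2 libraries. Leaving out growing replicate 4 alone or RIS replicate 2 alone gave −1.57 and −1.56, both called. DKK1 fell by 1.47 in RIS+shHMGA1 against shHMGA1 (SE 0.34, adjusted p 0.0014). Without the 2 libraries all RIS+shHMGA1 libraries lay above all RIS libraries, 21.8 to 29.1 against 12.3 to 17.98 CPM, but the difference of 0.60 (SE 0.32, adjusted p 0.14) was not called.

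DKK3, a divergent family member with no settled action on LRP coreceptors, was the most abundant of the 10 transcripts per kilobase in growing cells (chr11:11977754-12031316, minus strand). It had 203 to 1275 CPM (median 1020) in growing, 914 to 1200 (median 998) in shHMGA1, then 209 to 1112 (median 322) in RIS cells and 208 to 367 (median 242) in RIS+shHMGA1. The lowest growing value came from growing replicate 4 and the highest RIS value from RIS replicate 2, and the other 5 libraries of each group did not overlap. DKK3 fell by 1.95 on the log2 scale in RIS+shHMGA1 against shHMGA1 (SE 0.37, adjusted p 0.00037). Its change in RIS against growing was −1.03 (SE 0.36, adjusted p 0.056) over 24 libraries and −1.77 (SE 0.20, adjusted p 4.4e-08) over 22. Leaving out growing replicate 4 alone or RIS replicate 2 alone gave −1.24 and −1.56, both called.

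SFRP1, a secreted decoy that carries a Frizzled-like ligand-binding domain, had its lowest median in RIS+shHMGA1 cells (chr8:41119481-41166992, minus strand). It had 77.7 to 173 CPM (median 98.6) in growing, 54.4 to 180 (median 68.8) in shHMGA1, then 90.8 to 121 (median 107) in RIS cells and 50.1 to 62.7 (median 53.2) in RIS+shHMGA1. All RIS+shHMGA1 libraries lay below all RIS libraries and below all growing libraries, and RIS and growing overlapped. The log2 fold change in RIS+shHMGA1 against RIS was −0.94 (SE 0.27, adjusted p 0.018) over 24 libraries and −0.93 (SE 0.27, adjusted p 0.010) over 22, neither of them called. Leaving out growing replicate 4 alone gave the same −0.94 at adjusted p 0.0070, which was called, and DESeq2 gave −0.93 at 0.0060. SFRP1 fell by 1.07 in RIS+shHMGA1 against growing (SE 0.27, adjusted p 0.0020). The change in RIS against growing was −0.13 (SE 0.27, adjusted p 0.75), with a 95% interval of −0.68 to 0.43. Between RIS+shHMGA1 and shHMGA1 the change was −0.87 (SE 0.27, adjusted p 0.0086), called over 24 libraries and, at adjusted p 0.0046, over 22. That call was lost when any one of 12 libraries was left out (shHMGA1 replicates 5 and 6, RIS+shHMGA1 replicates 1 to 6, RIS replicates 4 to 6 and growing replicate 3), at −0.91 to −0.63 and adjusted p 0.010 to 0.038, and with relative log expression scaling at adjusted p 0.010.

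**Figure D2:**
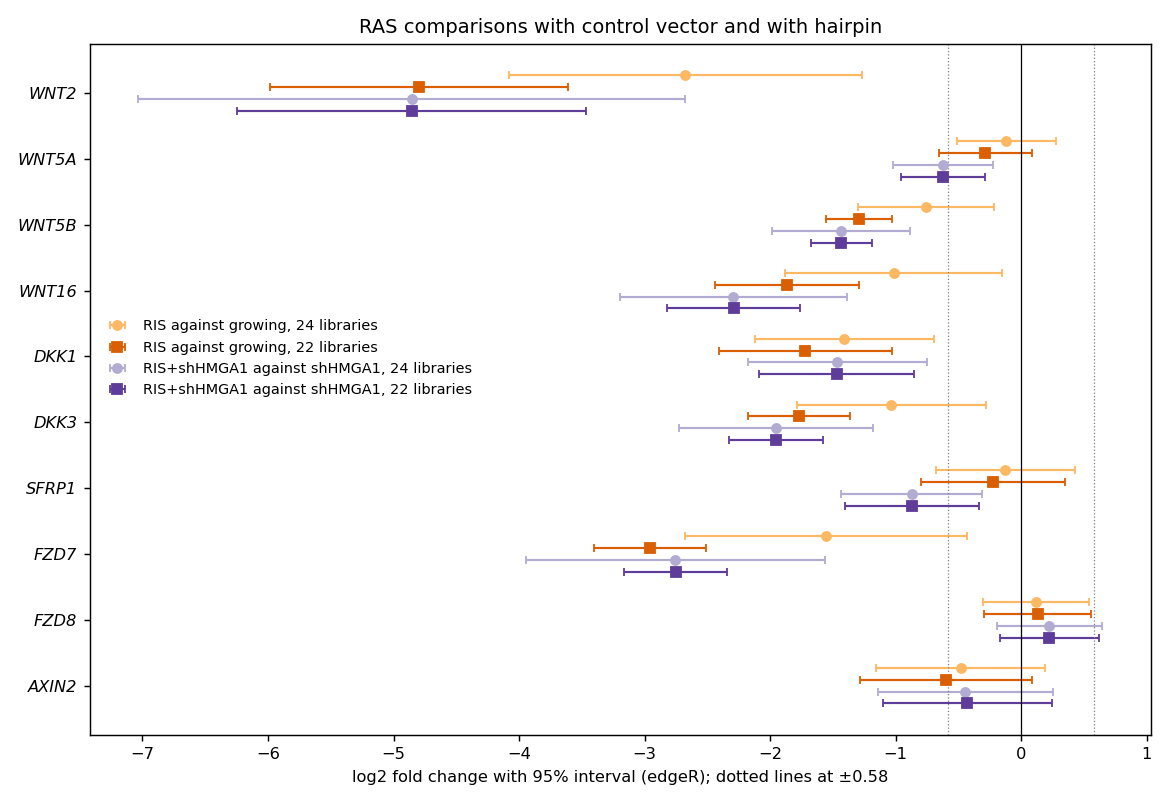
Log2 fold change of each gene with 4OHT, with 95% intervals (edgeR), for RIS against growing (orange) and RIS+shHMGA1 against shHMGA1 (purple), over 24 libraries (pale circles) and without growing replicate 4 and RIS replicate 2 (dark squares). Dotted lines stand at ±0.58, and the RIS against growing estimate for FZD7 moved from −1.56 to −2.96 without the 2 libraries.

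FZD7, a Frizzled receptor used by canonical ligands, showed the widest separation among the well-counted genes (chr2:202898578-202903164, plus strand). It had 7.84 to 127 CPM (median 101) in growing, 68.6 to 87.9 (median 81.8) in shHMGA1, then 9.49 to 112 (median 13.9) in RIS cells and 8.26 to 18.5 (median 9.84) in RIS+shHMGA1. Growing replicate 4 lay at the RIS level and RIS replicate 2 at the growing level, and without them growing (75.1 to 127 CPM) and RIS (9.49 to 19.1 CPM) did not overlap. FZD7 fell by 2.75 on the log2 scale in RIS+shHMGA1 against shHMGA1 (SE 0.58, adjusted p 0.00064). Its change in RIS against growing was −1.56 (SE 0.54, adjusted p 0.055) over 24 libraries and −2.96 (SE 0.22, adjusted p 3.8e-11) over 22. Leaving out growing replicate 4 alone or RIS replicate 2 alone gave −1.79 and −2.72, both called.

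FZD8, a Frizzled receptor encoded like FZD7 by a single exon, was not called in any of the 6 comparisons over 24 or 22 libraries (chr10:35927175-35931224, minus strand). It had 26.3 to 65.6 CPM (median 39.9) in growing, 27.6 to 42.3 (median 37.7) in shHMGA1, then 35.1 to 66.5 (median 41.5) in RIS cells and 32.8 to 63.3 (median 38.5) in RIS+shHMGA1, so that all 4 groups overlapped. The log2 fold change was 0.12 (95% interval −0.30 to 0.54) in RIS against growing and 0.23 (−0.20 to 0.65) in RIS+shHMGA1 against shHMGA1. The upper bound of the latter lies above 0.58, so these libraries do not show that FZD8 stayed level.

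AXIN2, a scaffold of the β-catenin destruction complex that is itself a standard readout of canonical signalling, was counted at 1 to 23 reads per library (chr17:63524681-63557766, minus strand). It had 0.386 to 1.39 CPM (median 0.882) in growing, 0.360 to 1.32 (median 0.759) in shHMGA1, then 0.508 to 0.844 (median 0.637) in RIS cells and 0.146 to 1.09 (median 0.555) in RIS+shHMGA1. The 4 groups overlapped. The log2 fold change was −0.48 (95% interval −1.16 to 0.19, adjusted p 0.31) in RIS against growing, −0.60 (−1.29 to 0.09) without the 2 libraries, and −0.44 (−1.14 to 0.26, adjusted p 0.25) in RIS+shHMGA1 against shHMGA1. No change in AXIN2 was detected, and these intervals leave room for a fall of more than 1 on the log2 scale.

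Counted together, most of the genes were called lower with 4OHT in hairpin cells. In RIS+shHMGA1 against shHMGA1, which uses neither departing library in its groups, 8 of 10 were called lower and 0 higher, the exceptions being FZD8 and AXIN2. WNT2, 1 of the 8, passed the low-count filter only through libraries without 4OHT. It held at most 9 reads in a RIS library and 1 in a RIS+shHMGA1 library. A lower value of WNT2 with 4OHT was thus nearly fixed by the filter, here and in the counts below, and adds no support to them. Over all genes tested, 19.5% were called lower and 19.6% higher in that comparison. The median log2 fold change was −1.45 over the 10 genes and −0.02 over all genes, and the count of 8 held without the 2 libraries, where 21.9% of all genes were called lower. The 10 genes were chosen with earlier results of these data known, so their counts and medians in this paragraph are descriptions. In RIS against growing 0 of 10 were called over 24 libraries, where 0% of all genes were called. At an unadjusted p under 0.05 there were 6 of 10 against 33% of all genes, and DESeq2 called 2 (WNT2 and DKK1) against 5.72% of all genes. Without growing replicate 4 and RIS replicate 2, 6 of 10 were called lower (WNT2, WNT5B, WNT16, DKK1, DKK3 and FZD7) with 20.5% of all genes called lower, and the medians were −1.51 over the 10 genes and −0.01 over all genes. In RIS+shHMGA1 against growing 7 of 10 were called lower (all but DKK1, FZD8 and AXIN2) against 23.9% of all genes. Without the 2 libraries DKK1 joined them at −1.12 (SE 0.31, adjusted p 0.0021), making 8 of 10 against 28.5% of all genes. DKK1 was also called when growing replicate 4 alone (−1.12, adjusted p 0.0034) or growing replicate 1 alone (−1.10, adjusted p 0.0096) was left out. RIS+shHMGA1 against growing shares the growing libraries with RIS against growing, and the RIS+shHMGA1 libraries with RIS+shHMGA1 against shHMGA1. Proliferation and secretome genes moved in these comparisons too. Between RIS+shHMGA1 and shHMGA1, 10 of 10 proliferation genes were called lower and 6 of 6 secretome genes higher. The 10 summed fibroblast markers were at 14332 to 20307 CPM in shHMGA1 and 4691 to 6072 CPM in RIS+shHMGA1. They were at 22846 to 40373 CPM in growing and 5864 to 9248 CPM in RIS without the 2 departing libraries, which held 5321 CPM (growing replicate 4) and 26953 CPM (RIS replicate 2). The part of these genes in the Wnt values was not tested.

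The hairpin was also compared with its vector, without and with 4OHT. In shHMGA1 against growing 0 of 10 genes were called over 24 libraries, with 0 of 10 at an unadjusted p under 0.05 and 0 by DESeq2. Of all genes 0.27% were called, 13.2% had an unadjusted p under 0.05 and DESeq2 called 0.691%. Without the 2 libraries the count was 0 again, with 1 of 10 at an unadjusted p under 0.05, where 2.59% of all genes were called and 38.9% had such a p. The intervals were wide, since that of WNT16 ran from −0.23 to 1.49 and that of DKK1 from −0.19 to 1.198 on the log2 scale. In RIS+shHMGA1 against RIS 0 of 10 were called, with 4 at an unadjusted p under 0.05 and 2 called by DESeq2 (WNT5A and SFRP1). Of all genes 2.55% were called, 49.8% had an unadjusted p under 0.05 and DESeq2 called 12.2%. WNT5B was called there when growing replicate 4 was left out (−0.73, adjusted p 0.0086), together with WNT5A and SFRP1, in a fit that called 19% of all genes. Without both departing libraries WNT5A alone was called, against 12.5% of all genes.

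The interaction, that is whether the 4OHT response differed between hairpin and vector cells, was tested directly. None of the 10 genes was called, a count of 0 with 1 of 10 (WNT16) at an unadjusted p under 0.05 and 0 by DESeq2. Of all genes 0% were called, 10.3% had an unadjusted p under 0.05 and DESeq2 called 0.0196%. Without the 2 libraries the count was 0, with 0 of 10 at an unadjusted p under 0.05, where 0.00745% of all genes were called and 3.82% had such a p. The interaction of SFRP1 was −0.75 (95% interval −1.53 to 0.04, adjusted p 0.43) over 24 libraries and −0.65 (−1.43 to 0.14) over 22, and that of WNT5A −0.50 (−1.06 to 0.06, adjusted p 0.43) and −0.34 (−0.83 to 0.16). That of FZD7 changed sign, from −1.20 (−2.78 to 0.38) to 0.20 (−0.38 to 0.79). A call in one arm and not in the other, as for SFRP1 and WNT5A, was therefore not shown to be a difference between the arms.

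**Figure D3:**
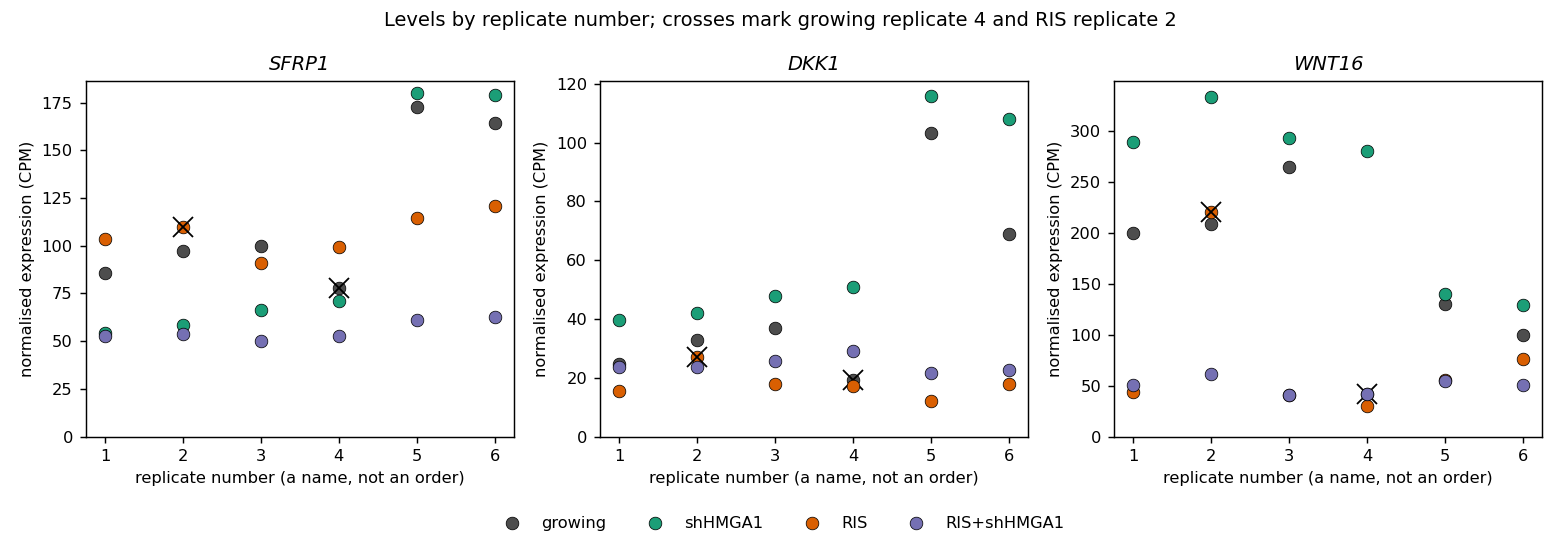
Normalised expression (CPM) of SFRP1, DKK1 and WNT16 by replicate number, which names libraries and carries no order, with 1 point per library. SFRP1 stood at 164 to 180 CPM in growing and shHMGA1 replicates 5 and 6 and at 54.4 to 100 CPM in replicates 1 to 4 of those groups.

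Replicates 5 and 6 stood apart from replicates 1 to 4 for several of the genes, although the labels name no batch. With so few libraries some genes separate in this way by chance, and the share of all genes that do was not counted. The values below are therefore descriptions and do not show a trait particular to these genes. SFRP1 was at 173 and 164 CPM in growing and 180 and 179 CPM in shHMGA1, above 77.7 to 100 and 54.4 to 71.2 CPM in the first 4 replicates. With 4OHT SFRP1 was above them too, by less, at 115 and 121 against 90.8 to 110 CPM in RIS. In RIS+shHMGA1 it was at 61.3 and 62.7 against 50.1 to 53.8 CPM. DKK3 and FZD7 in RIS+shHMGA1 and AXIN2 in growing were also higher in replicates 5 and 6. DKK1 was at 103 and 68.8 CPM in growing and 116 and 108 CPM in shHMGA1, above 19.2 to 37.1 and 39.8 to 51.0 CPM, but at 21.8 and 22.6 CPM in RIS+shHMGA1, below 23.7 to 29.1 CPM. FZD8 was higher in 3 groups, at 42.3 and 41.8 against 27.6 to 38.4 CPM in shHMGA1, at 66.5 and 53.9 against 35.1 to 43.0 CPM in RIS and at 49.5 and 63.3 against 32.8 to 40.2 CPM in RIS+shHMGA1. WNT16 in shHMGA1 was lower, at 140 and 129 CPM against 280 to 333 CPM, and so was WNT5A, at 532 and 695 against 760 to 1053 CPM. HMGA1 was lower in the same hairpin libraries, at 58.1 and 54.4 CPM in shHMGA1 against 98.7 to 143 CPM, and at 60.0 and 75.1 CPM in RIS+shHMGA1 against 197 to 262 CPM. The part of that lower level in the Wnt values was not tested.

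Split at those numbers, the change in RIS+shHMGA1 against shHMGA1 takes up the levels just given, so the estimates are a description. SFRP1 was −1.46 (SE 0.17) within replicates 5 and 6 and −0.29 (SE 0.10) within replicates 1 to 4 without the 2 departing libraries. WNT5A went the other way, at −0.08 (SE 0.21) and −0.84 (SE 0.13). DKK1 was −2.26 and −0.85, and WNT16 −1.29 and −2.65. The difference between the sets was not tested. With growing replicate 4 and RIS replicate 2 kept in, replicates 1 to 4 gave no call among the 10 genes in that comparison, a count of 0 in edgeR with 9 of 10 at an unadjusted p under 0.05, where 0% of all genes were called and 62.7% had such a p.

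**Figure D4:**
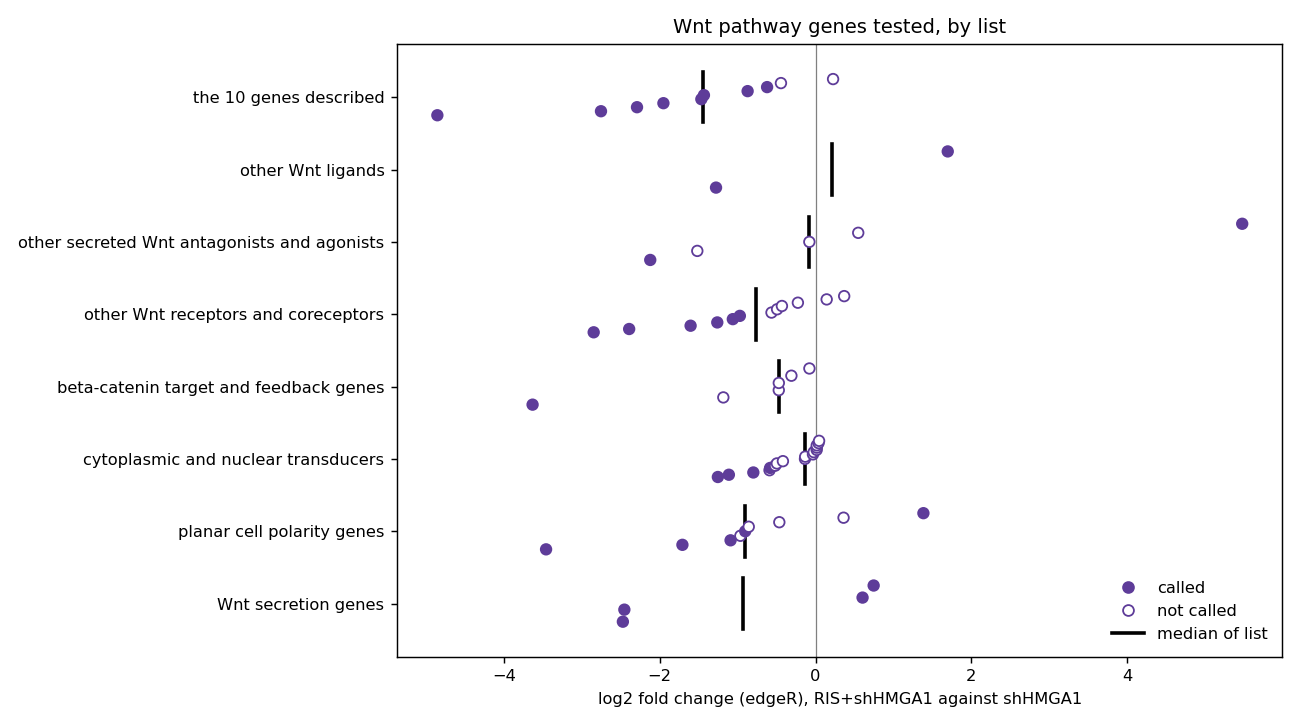
Log2 fold change (edgeR) in RIS+shHMGA1 against shHMGA1 for the 10 genes and 7 lists of other Wnt pathway genes, with 1 point per gene tested, filled where called, and a bar at the list's median. The 12 receptors and coreceptors tested hold 6 genes called lower and 0 higher, against 19.5% of all genes called lower and 19.6% higher.

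Beyond the 10 genes, 7 lists of Wnt pathway genes were read in RIS+shHMGA1 against shHMGA1. Over all genes tested, 19.5% were called lower and 19.6% higher there, the shares beside which each list count stands. Of 15 other ligands 2 were tested, and WNT7B rose by 1.70 (SE 0.49) while WNT3 fell by 1.28 (SE 0.33) on the log2 scale. Of 5 tested secreted antagonists and agonists, NDP, which encodes the Frizzled ligand norrin, rose by 5.48 (SE 1.19) and FRZB, a secreted Frizzled-related protein, fell by 2.12 (SE 0.50). Of 12 tested receptors and coreceptors 6 fell and 0 rose, with FZD2 at −2.85 (SE 0.61) and ROR1, a coreceptor for WNT5A, at −2.39 (SE 0.46). The other 4 were LRP5, LRP6, FZD1 and PTK7, which were named after their values were seen. Their median was −0.77.

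Inside the cell, of 6 tested β-catenin target and feedback genes APCDD1, a membrane inhibitor of the pathway, fell by 3.63 (SE 0.65) and the other 5 were not called. Of 17 transducers 4 fell, with a list median of −0.14, a share near the 19.5% of all genes called lower. TCF7L1, a TCF factor, fell by 1.25 (SE 0.30) and APC, a scaffold of the destruction complex, fell by 1.11 (SE 0.27). Of 9 planar cell polarity genes 4 fell and 1 rose, against 19.5% and 19.6% of all genes. PRICKLE1 was at −3.46 (SE 0.73) and CELSR2 at −1.71 (SE 0.44). Of the 4 genes listed for Wnt secretion and transport, the glypicans GPC6 and GPC4 fell by 2.47 (SE 0.57) and 2.45 (SE 0.57), and the other two, WLS, which carries Wnts to the surface, and PORCN, which acylates them, rose by 0.75 (SE 0.18) and 0.60 (SE 0.18). Without the 2 departing libraries the counts for RIS+shHMGA1 against shHMGA1 were the same in the ligand, secreted, receptor and secretion lists. In that fit 2 of 6 targets, 5 of 17 transducers and 6 of 9 polarity genes were called lower, against 21.9% of all genes. The lists were chosen with results of these data known, so their counts are descriptions.

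The genes whose log2 CPM followed each of the 10 most closely over 24 libraries were read as a description, since the libraries share the 4OHT and hairpin groups. FZD7 ran closest to TLE4 (r = 0.99) and BDNF (0.99), DKK3 to FILIP1L (0.99) and CRISPLD2 (0.99), and WNT5B to EFEMP2 (0.99) and RANGAP1 (0.99). WNT2 ran closest to CCBE1 (0.98) and CAV1 (0.98), and WNT16 to BMP4 (0.98) and PIK3IP1 (0.98). Lower coefficients were reached for DKK1 with CCNE2 (0.95) and OBI1 (0.93), WNT5A with TOR1B (0.93) and SMURF2 (0.92), FZD8 with CD82 (0.87) and NOP2 (0.87), SFRP1 with NRP1 (0.86) and NETO2 (0.86) and AXIN2 with ZNF668 (0.74) and DELE1 (0.73). Among the 10 genes themselves DKK3 and FZD7 had the highest coefficient, 0.98, and WNT16 and FZD8 the lowest, −0.35.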

How the data were processed

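RNA was taken from 24 IMR90 cultures (4 groups, 6 labelled biological replicates each) and sequenced from TruSeq Stranded mRNA libraries. The authors mapped reads to hg19 with STAR 2.5.0b, trimmed with Cutadapt 1.10.0 and counted with Rsubread, and the deposited files hold raw counts per Entrez identifier. The gene annotation and strand setting are not given in the sources used here. Names came from a RefSeq gene table by Entrez identifier, positions from GENCODE lifted to GRCh37. Groups and replicate numbers came from the sample titles.

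Genes were filtered by group (filterByExpr), scaled by TMM and fitted over all 24 libraries with edgeR 4.0.16 (R 4.3.3), by its quasi-likelihood test, with p adjusted after Benjamini and Hochberg, and called at adjusted p under 0.01 and absolute log2 fold change over 0.58. CPM used TMM library sizes, log2 CPM a prior count of 2. SE was the fold change divided by the root of F. The script was tested on simulated counts with the same spread for every gene and no departing libraries. That test does not cover how the fit behaves with such libraries. The p-values set each change against the spread between these replicates, which was estimated over all groups of a fit. Named genes were the 10 genes, HMGA1, the 2 largest called changes of each wider list in RIS+shHMGA1 against shHMGA1, and the 2 closest patterns over genes with mean log2 CPM of at least 2. The 10 genes, the lists and the rules were chosen with earlier results of these data known. DESeq2 1.42.0, relative log expression scaling, no low-count filter, a replicate block and leaving out each library were alternatives. Within groups no libraries were duplicates, with a chi-square per degree of freedom of at least 2.89 over 60 within-group pairs. Pairs of libraries from different groups were not checked.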

Additional observations from a re-analysis of the deposited data

Results flagged for a closer look

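In each of 40 groups (10 genes in 4 groups of 6 libraries) the gap between the most extreme library and its neighbour was divided by the group's range, and 9 exceeded Dixon's critical value for groups of 6. Chance flags about 1 in 20 groups, or 2 of 40. Of the 9, 5 were growing replicate 4 lying lowest, with ratios of 0.722 for WNT2, 0.876 for WNT5A, 0.676 for WNT5B, 0.719 for DKK3 and 0.811 for FZD7. RIS replicate 2 lay highest in 2, at 0.697 for WNT5B and 0.718 for FZD7. WNT5B in shHMGA1 replicate 4 lay lowest at 0.668. WNT2 in RIS+shHMGA1 replicate 6 had a ratio of 1, because that library held the group's 1 read. Growing replicate 4 and RIS replicate 2 are the libraries whose proliferation and secretome genes went against their labels.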

How the results depend on the processing

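Over planned and added alternatives, the 8 calls of RIS+shHMGA1 against shHMGA1 stayed at 6 to 8 and the 7 of RIS+shHMGA1 against growing at 7 to 8, except that both fell to 0 within replicates 1 to 4 with the departing libraries kept in, where 0% and 0.0374% of all genes were called; the cause was not tested. Settings that drop replicates 5 and 6 or the 2 departing libraries were chosen after seeing the data. In RIS against growing the count of 0 became 2 with DESeq2 (5.72% of all genes called), 5 within replicates 5 and 6 (16.2%), 6 with the replicate block and without the 2 libraries (39.1%), and 0 to 7 over the fits that left libraries out. In RIS+shHMGA1 against RIS it became 1 with the replicate block (12.3%), 2 with DESeq2 (12.2%), 2 with the block and without the 2 libraries (14.4%), 1 within replicates 1 to 4 (0.112%), and 0 to 3 over the fits that left libraries out. In shHMGA1 against growing those fits gave 0 to 1, and the interaction gave 0 throughout. AXIN2 and WNT2 had few reads, and WNT2 gave no fold where no read was left in either group.

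The replicate block changed no other call count. In every pair of groups same-numbered libraries had a higher mean r than libraries of other numbers (0.18 against −0.05 over all pairs). Single same-numbered pairs varied, from −0.59 to 0.83 between growing and RIS. Of 24 libraries 8 correlated best with their own number among 6 numbers. The main fit did not use the replicate numbers, so a shared part of the replicates stayed in its spread. Under the block, values that were not called and changed sign were WNT5B (0.014) and FZD7 (0.053) in shHMGA1 against growing and the interaction of AXIN2 (−0.045); with the block and without the 2 libraries, the interactions of DKK1 (0.31) and FZD7 (0.18).

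Other changes of sign concerned values that were not called. Without the low-count filter FZD8 was −0.0018 in RIS+shHMGA1 against growing. Within replicates 5 and 6, WNT5A was 0.071 in RIS against growing, SFRP1 0.066 in shHMGA1 against growing, FZD7 0.053 and AXIN2 0.62 in RIS+shHMGA1 against RIS and AXIN2 0.41 in RIS+shHMGA1 against shHMGA1, and the interactions of WNT2, DKK1 and FZD7 were 0.73, 0.26 and 0.095. Within replicates 1 to 4, SFRP1 was 0.17 in RIS against growing, WNT5A 0.10 and AXIN2 0.29 in shHMGA1 against growing, and the interactions of FZD8 and AXIN2 were −0.075 and −0.78.

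Over the fits that left libraries out (1 at a time, the departing 2, or these with replicates 5 and 6), values that crossed 0 were as follows. In RIS against growing SFRP1 ran from −0.23 to 0.060 and FZD8 from −0.013 to 0.29. In shHMGA1 against growing WNT5B ran from −0.31 to 0.064, DKK3 from −0.11 to 0.30, FZD7 from −0.54 to 0.013 and AXIN2 from −0.27 to 0.12. In RIS+shHMGA1 against growing FZD8 ran from −0.12 to 0.18. In RIS+shHMGA1 against RIS WNT16 ran from −0.81 to 0.32, FZD8 from −0.25 to 0.031 and AXIN2 from −0.48 to 0.10. Interactions ran from −0.79 to 0.010 for WNT5B, −0.44 to 0.25 for DKK1, −1.06 to 0.060 for DKK3, −1.39 to 0.31 for FZD7, −0.088 to 0.24 for FZD8 and −0.60 to 0.20 for AXIN2.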
